A study of Mus musculus with 6 samples.

Results

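Cytosolic ribosomal protein genes encode the protein parts of the ribosomes that translate nuclear messages. They were taken as the protein-coding genes of the curated RefSeq annotation of mm10 whose symbol is Rps or Rpl followed by a number, with an optional final letter or l, together with Rplp0, Rplp1, Rplp2 and Rpsa. The rule found 82 of 21000 protein-coding genes with a curated transcription start site (TSS), 31 of the small subunit and 51 of the large subunit. Of these, 6 are paralogs whose symbol ends in l. Rps3a1, Fau and Rack1 also encode ribosomal proteins but do not match the rule, and together with Rpl22l1 and Rpl7l1 these 5 genes are described apart.

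Lsd1, a demethylase of lysines in histone tails, was mapped by ChIP-seq in C2C12 cells, a mouse myoblast line, on day 1 of differentiation. Wild-type cells were kept either in myogenic medium with horse serum, or in adipogenic medium with FCS, isobutylmethylxanthine, indomethacin, dexamethasone, insulin, T3 and rosiglitazone. LSD1(OE) cells were kept in the adipogenic medium only. They are 1 C2C12 line with a lentiviral, doxycycline-inducible, Flag-tagged LSD1, selected with G418 and treated with doxycycline, so that effects of the line, of the drugs and of the LSD1 level cannot be told apart. Each condition had 1 ChIP library and 1 input library, so every difference between conditions is one between single libraries, and no p-value is given. The ChIP libraries held between 46155625 and 63915769 tags after duplicate filtering, and the authors' lists gave 43426 peaks in the myogenic, 18893 in the adipogenic and 33533 in the LSD1(OE) library. The smallest tag count of a listed peak was 27, 35 and 30, so a gene without a peak is one whose signal was not detectable at this depth and threshold. A promoter peak is a peak whose centre lay within 2000 bp of any TSS of a gene.

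Ribosomal proteins join ribosomal RNA in the nucleolus to form a small subunit, which decodes the message, and a large subunit, which links amino acids into protein. Their genes are active in nearly every cell and mostly start in CpG islands, often with a pyrimidine tract at the first base, through which translation of the messages responds to mTOR signalling. In muscle, ribosome production is known to change as fibres grow or waste.

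The start regions of 62 of the 82 genes were found in the RefSeq promoter table for GRCm38.p6, the assembly of mm10. The sequences below run from 120 bases before the TSS to 30 bases from it, 5′ to 3′ along the gene. Capitals mark CCGGAAG (the core bound by ETS factors such as Gabpa) and GGGCGG (a GC box, bound by Sp1) on either strand, AAGATGGC (bound by Yy1) on either strand, CTTTCC within 15 bases of the TSS on the coding strand, and an unbroken run of C and T that opens with a C at the TSS. Such matches may overlap one another, and only those inside the printed stretch are in capitals. The first group had an Lsd1 promoter peak in all 3 libraries and was among the 8 genes with the highest mean tag density.
Rpl37, chr15:5116493-5116642, plus strand: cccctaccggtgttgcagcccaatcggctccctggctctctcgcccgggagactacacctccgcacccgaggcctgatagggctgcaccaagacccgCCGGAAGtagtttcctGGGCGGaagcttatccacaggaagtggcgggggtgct
Rpl41, chr10:128549139-128549288, minus strand: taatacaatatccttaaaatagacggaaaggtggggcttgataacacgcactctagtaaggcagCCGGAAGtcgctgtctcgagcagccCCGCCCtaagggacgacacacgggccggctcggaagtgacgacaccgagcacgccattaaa
Rpl15, chr14:18270957-18271106, minus strand: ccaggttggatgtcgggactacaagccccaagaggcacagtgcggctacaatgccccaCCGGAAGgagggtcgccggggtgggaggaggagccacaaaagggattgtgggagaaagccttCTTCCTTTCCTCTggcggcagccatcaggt
Rps24, chr14:24490558-24490707, plus strand: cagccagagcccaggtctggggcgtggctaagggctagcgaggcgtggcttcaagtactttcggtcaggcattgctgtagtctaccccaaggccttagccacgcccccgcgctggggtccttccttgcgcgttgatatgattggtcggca
The next starts had a promoter peak in 1 library, the myogenic one for Rps6 and the adipogenic one for Rpl11.
Rps6, chr4:86857338-86857487, minus strand: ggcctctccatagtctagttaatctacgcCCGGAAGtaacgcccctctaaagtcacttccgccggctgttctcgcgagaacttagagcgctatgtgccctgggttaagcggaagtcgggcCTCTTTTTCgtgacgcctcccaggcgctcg
Rpl11, chr4:136053364-136053513, minus strand: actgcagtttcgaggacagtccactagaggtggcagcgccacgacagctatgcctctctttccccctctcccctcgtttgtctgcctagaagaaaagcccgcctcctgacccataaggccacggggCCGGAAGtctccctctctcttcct
The last group had a promoter peak in none of the libraries, and holds the 4 such genes that are not paralogs ending in l, followed by Rpl3l, the paralog made in heart and skeletal muscle.
Rpl4, chr9:64173267-64173416, plus strand: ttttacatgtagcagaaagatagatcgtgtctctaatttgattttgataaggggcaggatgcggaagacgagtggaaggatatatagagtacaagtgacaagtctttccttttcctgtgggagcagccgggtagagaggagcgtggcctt
Rpl18, chr7:45717951-45718100, plus strand: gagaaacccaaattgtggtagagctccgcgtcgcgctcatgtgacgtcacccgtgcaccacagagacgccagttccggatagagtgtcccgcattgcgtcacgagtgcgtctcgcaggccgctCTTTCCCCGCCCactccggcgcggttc
Rps23, chr13:90923002-90923151, plus strand: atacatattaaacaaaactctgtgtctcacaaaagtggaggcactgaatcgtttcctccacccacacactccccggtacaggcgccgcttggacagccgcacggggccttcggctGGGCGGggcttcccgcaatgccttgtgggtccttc
Rpsa, chr9:120127646-120127795, plus strand: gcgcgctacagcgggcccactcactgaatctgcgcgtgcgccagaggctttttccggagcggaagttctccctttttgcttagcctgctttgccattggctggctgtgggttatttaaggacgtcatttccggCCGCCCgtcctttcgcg
Rpl3l, chr17:24727706-24727855, plus strand: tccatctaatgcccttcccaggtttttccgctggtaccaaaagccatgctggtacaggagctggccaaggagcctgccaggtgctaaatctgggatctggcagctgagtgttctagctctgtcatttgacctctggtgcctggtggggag
Both the first and the last group hold starts with GC boxes or ETS cores and starts with neither. The Rpl3l start stood apart by its few CpG dinucleotides, with an observed over expected ratio of 0.184 within 500 bp of the TSS, against 0.726 at Rpl37 and 0.897 at Rpsa.

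In myogenic medium, 71 of the 82 ribosomal protein genes, or 86.6%, had an Lsd1 promoter peak (95% Wilson interval 77.6 to 92.3%), where 51.6% of all protein-coding genes had one. In adipogenic medium 28 genes, or 34.1% (24.8 to 44.9%), had one, against 30.0% of all protein-coding genes. In LSD1(OE) cells the number was 44, or 53.7% (42.9 to 64.0%), against 41.2%. These intervals, and those on tag counts below, cover counting error only. The share of ribosomal protein genes thus lay above the background in the myogenic library, and the background lay inside the interval in the adipogenic library and below it in the LSD1(OE) library. The LSD1(OE) excess depended on which peaks were kept. With each list cut by score to the length of the adipogenic one, 59 genes (72.0%) had a promoter peak in the myogenic library, 28 (34.1%) in the adipogenic and 32 (39.0%) in the LSD1(OE) library, against 40.4, 30.0 and 32.3% of other protein-coding genes. With an FDR of at most 0.1% the LSD1(OE) share was 32.9% (23.7 to 43.7%) against 28.9%, and with a score of at least 100, where the score is −log10 of the peak caller's p-value times 10, it was 39.0% (29.2 to 49.8%) against 32.1%. In these 3 settings the share of other genes lay inside the LSD1(OE) interval and below the myogenic one.

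CpG content of the start moved with these shares. A start with a GC content of at least 50% and a CpG ratio of at least 0.6 within 500 bp was found at 72 of the 82 genes (87.8%) and at 47.8% of the other protein-coding genes. Among other genes with such a CpG-rich start, 81.0% had a promoter peak in the myogenic, 49.1% in the adipogenic and 65.7% in the LSD1(OE) library. The 72 ribosomal protein genes of this kind gave 90.3% (81.3 to 95.2%), 36.1% (26.0 to 47.6%) and 58.3% (46.8 to 69.0%). Against these genes the ribosomal protein genes had the higher share in the myogenic library and the lower share in both others. The share of the other genes lay just outside the interval in the myogenic and adipogenic libraries and inside it in the LSD1(OE) library. Of the 10 genes without a CpG-rich start, 6, 2 and 2 had a promoter peak in the 3 libraries, and of other genes without one 24.3, 12.4 and 18.6%. With so few genes the intervals were wide, 31.3 to 83.2% in the myogenic library and 5.67 to 51.0% in each of the others.

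**Figure D1:**
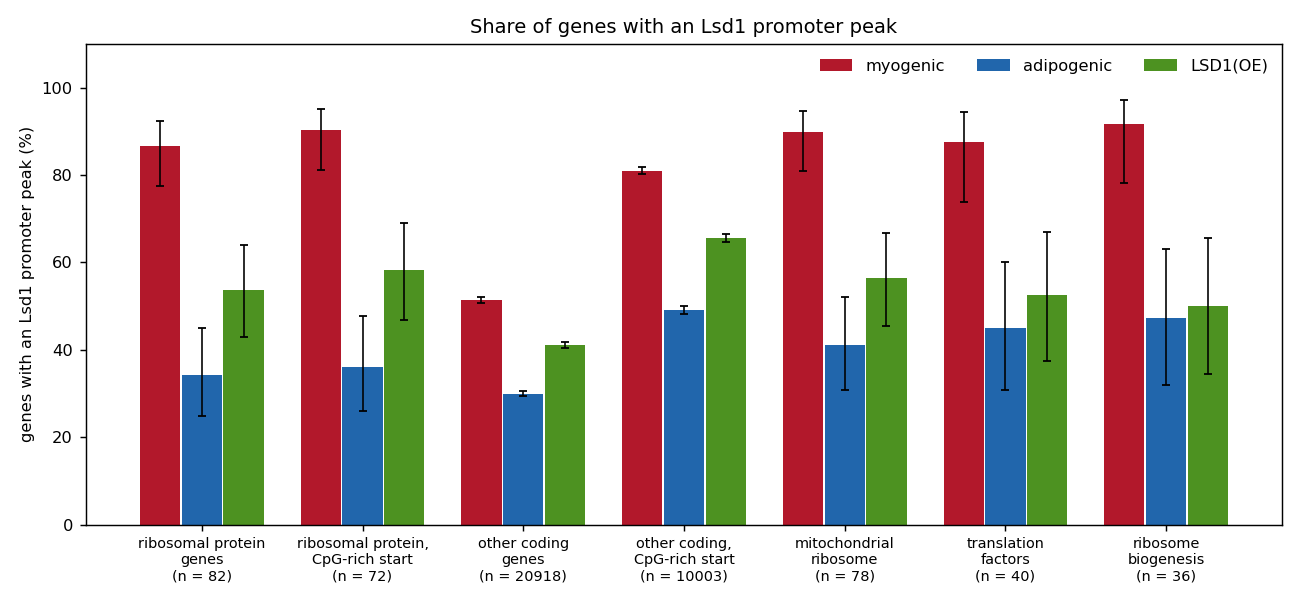
Share of genes with an Lsd1 promoter peak, in percent, in 7 sets of genes, with 1 bar per library and 95% Wilson intervals that cover counting error. The myogenic bar of the ribosomal protein genes reaches 86.6% and the adipogenic bar 34.1%, while other coding genes with a CpG-rich start reach 81.0% and 49.1%.

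Both subunits showed the order of libraries that all protein-coding genes showed. Over all protein-coding genes, 51.6% had a promoter peak in the myogenic, 30.0% in the adipogenic and 41.2% in the LSD1(OE) library. Of the 31 small subunit genes, 27 had a promoter peak in the myogenic, 7 in the adipogenic and 16 in the LSD1(OE) library. Of the 51 large subunit genes, 44, 21 and 28 had one. In the adipogenic library this is 22.6% of small subunit genes (11.4 to 39.8%) and 41.2% of large subunit genes (28.8 to 54.8%), intervals that overlap.

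A promoter peak in all 3 libraries was found at 20 genes, Rpl3, Rpl7, Rpl8, Rpl9, Rpl10a, Rpl13, Rpl15, Rpl26, Rpl27, Rpl27a, Rpl30, Rpl36, Rpl36al, Rpl37, Rpl41, Rps10, Rps18, Rps21, Rps24 and Rps29. They are 24.4% of the ribosomal protein genes, and 26.3% of the other protein-coding genes had this pattern. A further 23 genes (28.0%) had a peak in the myogenic and LSD1(OE) but not the adipogenic library, against 11.8% of other genes, and 22 (26.8%) in the myogenic library alone, against 10.6%. The myogenic and adipogenic libraries shared 6 more genes (7.32%, against 2.74% of other genes), Rpl12, Rpl13a, Rpl36a, Rpl39, Rplp0 and Rps20. Rpl11 and Rps26 had a promoter peak in adipogenic medium only (2.44%, against 0.464% of other genes). Rps25 had one in LSD1(OE) cells only (1.22%, against 2.59%). The remaining 8 genes, or 9.76%, had none, against 45.1% of other genes.

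Of the 71 genes with a myogenic promoter peak, 26 also had one in adipogenic medium, 36.6% (26.4 to 48.2%), while 56.4% of all protein-coding genes with a myogenic promoter peak did. In the LSD1(OE) library 43 of the 71 had one, 60.6% (48.9 to 71.1%), against 74.0%. Genes with strong myogenic peaks were more often found again in the other libraries, and the ribosomal protein genes had a lower median score than other genes, so the shares were also taken by myogenic score. Among genes with a score of 100 to 200, an adipogenic peak was found at 2 of 20 ribosomal protein genes (10.0%, interval 2.79 to 30.1%) and at 30.0% of the others. With a score of 200 to 400 it was found at 9 of 26 (34.6%, 19.4 to 53.8%) against 52.0%, and at 400 or more at 15 of 21 (71.4%, interval up to 86.2%) against 85.1%. The lowest class, below 100, held 4 ribosomal protein genes, of which 0 had an adipogenic peak (interval up to 49.0%), against 14.1%. In each of the 4 classes the share was lower than among other genes, whose share nevertheless lay inside the wide interval, near its upper end in the 3 upper classes. For LSD1(OE) the counts were 2 of 4, 10 of 20, 14 of 26 and 17 of 21, against 37.7, 55.3, 74.3 and 94.0% of other genes. The other genes' share lay above the interval in the 2 upper classes only, where the ribosomal protein genes reached 53.8% (35.5 to 71.2%) and 81.0% (interval up to 92.3%). The class of 400 or more has no upper limit, so scores were not matched within it. The upper quartile of all myogenic scores was 469 at ribosomal protein genes and 581 at other genes.

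**Figure D2:**
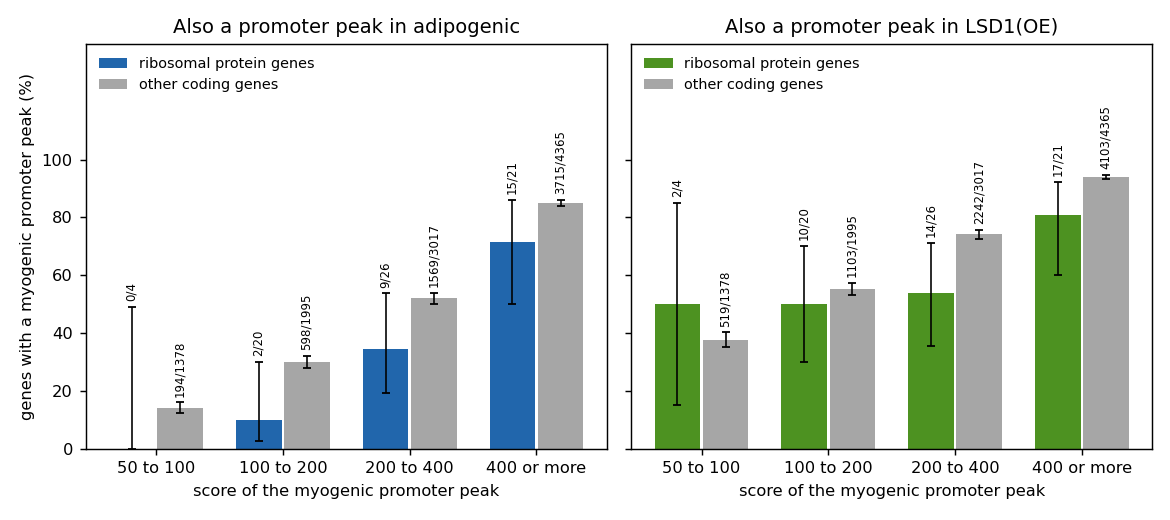
Share of genes with a myogenic promoter peak that also had one in the adipogenic (left) or LSD1(OE) (right) library, in percent, by class of the myogenic score, with 95% Wilson intervals and counts above. The adipogenic bars of ribosomal protein genes stand at 10.0, 34.6 and 71.4% in the 3 upper classes, below the grey bars of other coding genes at 30.0, 52.0 and 85.1%.

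Peaks at ribosomal protein genes were of middling strength. Their median score was 261 in the myogenic, 108 in the adipogenic and 174 in the LSD1(OE) library, against 324, 142 and 205 at other protein-coding genes with a promoter peak. Rpl41 had the highest score in the adipogenic library, 536, and in the LSD1(OE) library, 652, whereas other genes reached 3100 and 3183. A score under 100 was given to 4 of 71 (5.63%), 12 of 28 (42.9%) and 12 of 44 (27.3%) peaks. At other protein-coding genes the shares were 12.8, 32.6 and 21.9%. Before scoring, the peak caller multiplied the ChIP tags up to the number of input tags, by 1.90, 1.28 and 1.82, and with the score divided by that factor 67 (81.7%), 24 (29.3%) and 34 (41.5%) genes had a score of at least 50, against 45.4, 26.8 and 33.1% of other genes. The share of other genes then lay inside the interval in the adipogenic (20.5 to 39.9%) and LSD1(OE) (31.4 to 52.3%) libraries.

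Tag density, the ChIP tags of a peak per kb of its called length and per 1000000 filtered ChIP tags, puts the libraries on one scale. Rpl37 had the highest mean of the 3 libraries, 1.70, with a density of 2.19 (Poisson interval 1.87 to 2.55) in the myogenic, 1.52 (1.28 to 1.80) in the adipogenic and 1.38 (1.12 to 1.69) in the LSD1(OE) library. Its myogenic interval lay above both others, which overlapped. At Rps24 the densities were 1.95, 1.37 and 1.10, and at Rpl15, like Rps24 a gene mutated in Diamond-Blackfan anaemia, 1.96, 1.24 and 1.38. Both genes again had the myogenic library highest. The myogenic interval overlapped the adipogenic one at Rps24 (1.61 to 2.34 and 1.12 to 1.65) and the LSD1(OE) one at Rpl15 (1.64 to 2.33 and 1.12 to 1.69).

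Rpl41, which encodes one of the smallest known proteins, had the next highest mean, 1.69, with 2.03, 1.30 and 1.75. Its adipogenic peak was 4103 bp long, covering chr10:128546308-128550410 with 341 tags. Its strongest myogenic peak was centred 1482 bp downstream of the TSS, a weaker one was centred −57 bp from it, and Zc3h10 starts within 2000 bp of all 3 strongest peaks. Rpl36al, a paralog of Rpl36a, shared its peaks with Mgat2, whose TSS was nearer to the peak centre in each library, and had 1.74, 1.08 and 1.59. Rpl13 had 2.04, 1.07 and 1.47, but its adipogenic peak was centred at −1983 bp from the TSS and did not overlap the myogenic one, which lay over the TSS at chr8:123101793-123102823.

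Rpl8 had 1.92, 1.15 and 1.53 and Rpl3, a protein of the peptidyl transferase centre, 1.84, 1.30 and 1.402. At the other end of the 20 genes stood Rpl27a with 1.32, 1.17 and 1.01 and Rps10 with 1.23, 0.982 and 1.28. In all 3 libraries the intervals of Rpl27a and Rps10 overlapped. Rpl26, Rps29 and Rpl27 had means of 1.32, 1.31 and 1.25.

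Over the 20 genes, the median density was 1.78 in the myogenic, 1.15 in the adipogenic and 1.36 in the LSD1(OE) library. At 5503 other protein-coding genes with a promoter peak in all 3 libraries it was 1.72, 1.22 and 1.37. The density was lower in adipogenic than in myogenic medium at 20 of the 20 genes and at 96.5% of the others, with a median log2 ratio of −0.56 against −0.47. From adipogenic wild-type to LSD1(OE) cells it was lower at 7 of 20 genes and at 25.8% of others, with a median log2 ratio of 0.19 against 0.16. The lower adipogenic values were thus shared with other genes. Rps24, Rpl37, Rps18 and Rpl7 were among the genes with a lower density in LSD1(OE) than in wild-type adipogenic cells. At each of these genes the adipogenic and LSD1(OE) intervals overlapped.

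**Figure D3:**
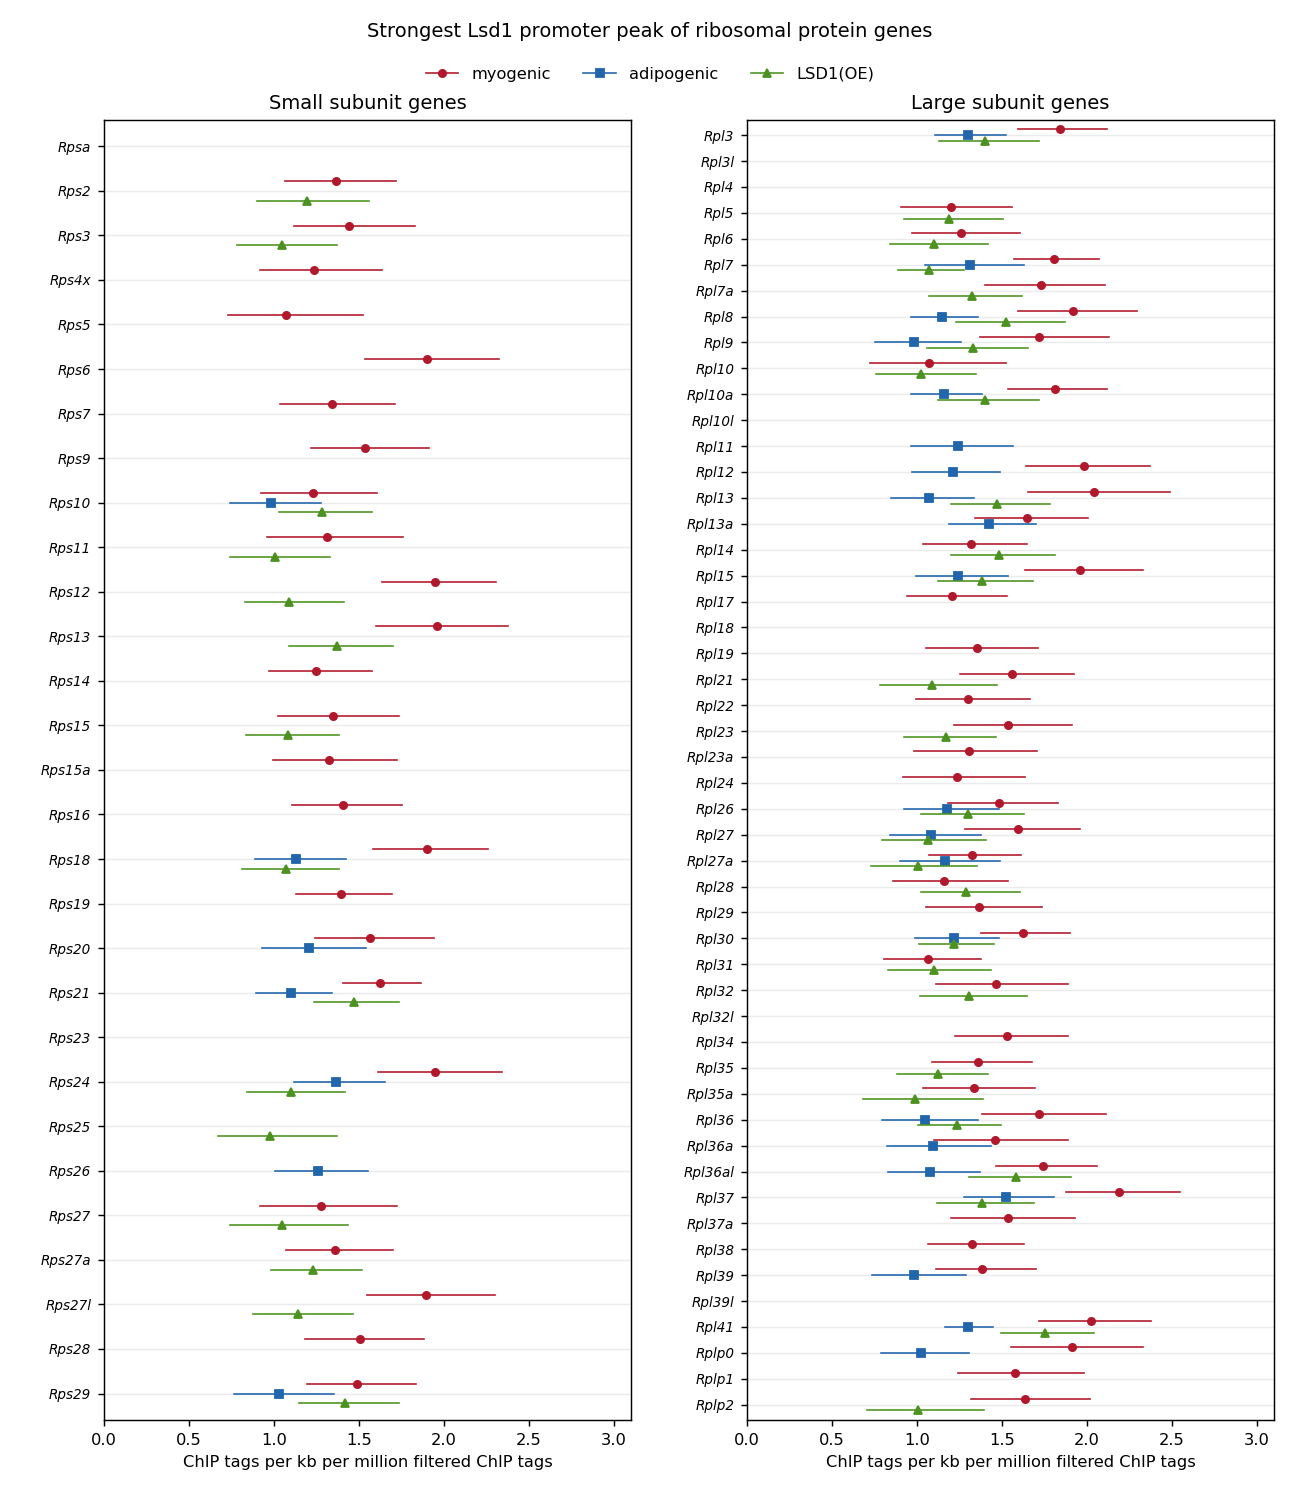
Tag density of the strongest Lsd1 promoter peak (x axis, ChIP tags per kb per 1000000 filtered ChIP tags) for the ribosomal protein genes reported here, small subunit left and large subunit right, with exact 95% Poisson intervals. Rpl37 reaches 2.19 in the myogenic library, to the right of its 1.52 and 1.38 in the others, and rows without a point are genes without a promoter peak.

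Among genes with a peak in the myogenic and LSD1(OE) but not the adipogenic library, Rps13 had a score of 497 and 229, with densities of 1.96 and 1.37. Their intervals, 1.60 to 2.38 and 1.09 to 1.70, overlapped. At Rps12 the densities were 1.95 (1.63 to 2.31) and 1.09 (0.828 to 1.41), and these intervals did not overlap. Rps27l, Rps12 and Rpl7a had myogenic scores of 477, 421 and 399 and LSD1(OE) scores of 126, 105 and 167.

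Among genes with a peak in the myogenic library alone was Rps6, the target of the kinases encoded by Rps6kb1 and Rps6kb2, with a score of 449, 95 tags and a density of 1.90 at chr4:86856782-86857864. Rps6 lay 108842 bp from the nearest adipogenic and 108883 bp from the nearest LSD1(OE) peak. Rps19, the gene most often mutated in Diamond-Blackfan anaemia, had a score of 297 with 98 tags, Rpl34 297 with 85 tags and Rps9 278 with 80 tags. These genes were named for having some of the highest scores among genes seen in a single library. That they lay above the family's median score of 261 therefore does not describe the other genes of this pattern. Over all 22 genes with a peak in the myogenic library alone, the median score was 197.

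The myogenic score also differed between the patterns. Its median was 509 at the 20 genes with a peak in all 3 libraries, 337 at the 6 shared with the adipogenic library alone, 206 at the 23 shared with the LSD1(OE) library alone and 197 at the 22 seen in the myogenic library alone. The first group ranged from 133 to 899, and Rps6 with 449 in the last group lay inside that range.

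The stalk proteins Rplp0, Rplp1 and Rplp2, which bring translation factors to the large subunit, all had a myogenic promoter peak. Rplp0 had a score of 461 in the myogenic and 70.7 in the adipogenic library, with densities of 1.91 and 1.02 whose intervals, 1.55 to 2.33 and 0.788 to 1.31, did not overlap. Rplp1 was listed with a score of 273 in the myogenic library only. Rplp2 had a score of 342 in the myogenic library and 57.3, from 36 tags, in LSD1(OE) cells. The 3 genes therefore showed 3 different patterns, of which those of Rplp0 and Rplp2 rest on peaks near the calling threshold.

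Rpl5 and Rpl11 form, with the smallest ribosomal RNA, a particle that can bind the p53 regulator Mdm2. Rpl5 had a score of 132 in the myogenic and 149 in the LSD1(OE) library, with densities of 1.20 and 1.19. Rpl11 had its only promoter peak in adipogenic medium, at chr4:136052883-136053779, a stretch that holds the TSS. It had 71 tags, scored 120 and reached a density of 1.24 (0.967 to 1.56). Rps26, a protein at the exit of the message channel, was the other gene of this kind, with 85 tags, a score of 146 and a density of 1.26. The nearest myogenic peaks to Rpl11 and Rps26 were centred at −16776 and 7483 bp from the TSS. Rps25 had its single peak in LSD1(OE) cells, with 33 tags and a score of 50.8, just above the floor of 50, and Trappc4 starts nearer to that peak. Rps27a, which is made as a fusion with ubiquitin, had a score of 220 in the myogenic and 195 in the LSD1(OE) library.

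The 6 paralogs ending in l had a myogenic promoter peak less often than the other 76 genes. Of those 76, 69 (90.8%), 27 (35.5%) and 42 (55.3%) had a promoter peak in the myogenic, adipogenic and LSD1(OE) library. Of the paralogs, Rps27l and Rpl36al had peaks, and Rpl3l, Rpl10l, Rpl32l and Rpl39l had none. The intervals of paralogs and other genes lay apart in the myogenic library (2 of 6, 9.68 to 70.0%, and 82.2 to 95.5%) and overlapped in the adipogenic (1 of 6, 3.01 to 56.4%) and LSD1(OE) (2 of 6, 9.68 to 70.0%) libraries. Rps27l, a p53-induced gene, had myogenic and LSD1(OE) densities of 1.89 and 1.14, and its parent Rps27 had 1.28 and 1.05. The CpG ratio of the start was 0.815 at Rps27l and 1.02 at Rpl36al, and 0.184, 0.720, 0.463 and 0.550 at Rpl3l, Rpl10l, Rpl32l and Rpl39l, of which Rpl10l alone met both limits of a CpG-rich start. Rpl10l and Rpl39l are known as genes of the male germ line. At Rpl3l the nearest myogenic peak was centred at −3455 bp from the TSS, and at Rpl10l it was 1111379 bp away.

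The other genes without a promoter peak were Rpl4, Rpl18, Rps23 and Rpsa. Rpsa is also known as a laminin receptor, and Rps23 lies at the decoding centre. The nearest myogenic peak was centred at 5913 bp from the TSS of Rpl4, −2817 bp from that of Rpl18, −100791 bp from that of Rps23 and −17114 bp from that of Rpsa. Rpl18 was thus the closest to the limit of 2000 bp. Rpl18, Rps23 and Rpsa had CpG-rich starts, with ratios of 0.862, 0.751 and 0.897, and Rpl4 fell short through its GC content of 47.0%.

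Peaks at these genes sat close to the TSS. The strongest myogenic peak was centred within 300 bp of a TSS at 66 of 71 genes, or 93.0%, against 68.1% of other protein-coding genes and 71.5% of those with a CpG-rich start. In the LSD1(OE) library the share was 84.1%, at 37 of 44 genes, against 62.3%, and in the adipogenic library 67.9%, at 19 of 28, against 62.9%. The peaks were also shorter, with a median length of 1167, 1006 and 1095 bp against 1327, 1228 and 1204 bp. Their median scores were lower too, as given above, and neither length nor distance was compared at equal scores. A TSS of the gene lay inside the peak at 69 of 71 (97.2%), 26 of 28 (92.9%) and 41 of 44 (93.2%) genes. At other protein-coding genes the shares were 89.3, 86.1 and 85.3%, and at those with a CpG-rich start 93.6, 88.6 and 88.8%. The exceptions in the myogenic library were Rpl10, with a peak of 30 tags centred at −831 bp, and Rpl41.

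**Figure D4:**
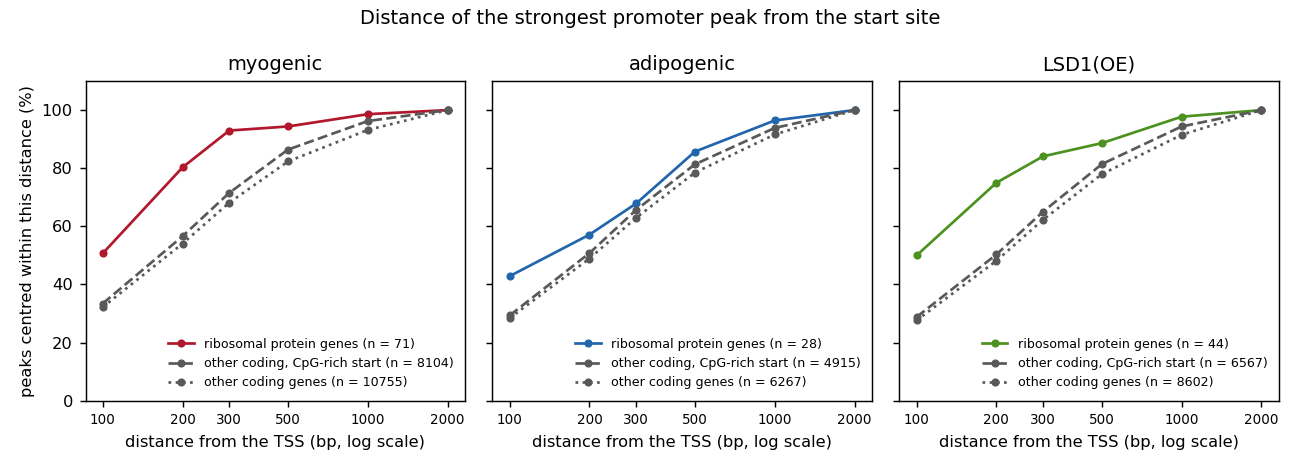
Cumulative share of strongest promoter peaks, in percent, centred within a given distance of the TSS (log axis, in bp), for ribosomal protein genes and other coding genes in each library. Within 300 bp the ribosomal protein genes reach 93.0% in the myogenic library and other coding genes 68.1%, while the curves lie closer together in the adipogenic library.

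Peaks of different libraries mostly overlapped, at ribosomal protein genes as at others. Of 26 genes with myogenic and adipogenic promoter peaks, 25 had overlapping peaks, and of 43 with one in the myogenic and LSD1(OE) libraries, 42 had, the exceptions being Rpl13 and Rpl35. These are 96.2% (81.1 to 99.3%) and 97.7% (87.9 to 99.6%), against 98.9 and 97.9% of other protein-coding genes. No peak was the strongest promoter peak of a pair of ribosomal protein genes. A TSS of another protein-coding gene lay in the window of the peak at 13 of 71 genes in the myogenic, 7 of 28 in the adipogenic and 11 of 44 in the LSD1(OE) library, as Nkiras1 did at Rpl15, Vps52 at Rps18, Lias at Rpl9 and Rdh10 at Rpl7. How often other protein-coding genes had such a further TSS was not counted. At 64 (90.1%), 24 (85.7%) and 39 (88.6%) genes the ribosomal protein gene itself held the nearest TSS. For other protein-coding genes with a promoter peak the shares were much the same, 88.0, 88.4 and 88.3%.

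Introns of many ribosomal protein genes carry snoRNAs, which guide the modification of ribosomal RNA. By position and strand, 29 of the 82 genes hosted at least 1 annotated snoRNA. Of these hosts, 27 (93.1%), 9 (31.0%) and 19 (65.5%) had a promoter peak in the myogenic, adipogenic and LSD1(OE) library, and of the 53 other genes 44 (83.0%), 19 (35.8%) and 25 (47.2%). The intervals of hosts and other genes overlapped in each library.

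Chromosome moved with the result at the strongest genes. All 4 ribosomal protein genes on chromosome 15, Rpl3, Rpl8, Rpl30 and Rpl37, had a promoter peak in all 3 libraries, against 16 of 78 (20.5%) on the other chromosomes. Among other protein-coding genes this held for 52.9% on chromosome 15 and 25.3% elsewhere, and among those with a CpG-rich start for 74.0 and 42.7%. Chromosome 15 was singled out after these values were seen, and its part in the result was not tested. Without its genes, 67 (85.9%), 24 (30.8%) and 40 (51.3%) of 78 ribosomal protein genes had a promoter peak. Of other protein-coding genes off chromosome 15, 50.8, 28.9 and 40.3% had one.

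Starts of the 62 genes in the promoter table were searched for short motifs, over 250 bases before to 50 after the TSS. The ETS core CCGGAAG was found on either strand at 24 of 62 (38.7%) and at 12.2% of 16853 protein-coding promoters, and the GC box GGGCGG at 36 (58.1%) and 47.7%. AAGATGGC was found at 5 (8.06%) and 3.27%. TATAAA lay on the coding strand in the 60 bases before the TSS at 0 of 62, and at 3.80% of all. On the coding strand within 15 bases of the TSS, CTTTCC was found at 9 (14.5%) and 1.34%, and a C at the TSS followed by at least 4 further C or T at 13 (21.0%) and 2.20%. Ribosomal protein starts thus held ETS cores and pyrimidine starts more often than all promoters. CpG-rich starts were also more frequent, at 87.8% of ribosomal protein genes and 47.8% of others, and motifs were not counted over CpG-rich promoters alone. The motif matches did not follow the Lsd1 peaks in one direction. Of 51 starts with a myogenic promoter peak 19 (37.3%) held the ETS core and 32 (62.7%) the GC box, and of 11 without such a peak 5 (45.5%) and 4 (36.4%). Of the starts printed above, Rps24, Rpl4 and Rpl3l held none of the motifs.

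Other genes of translation were counted in the same way. Of the 5 genes outside the rule, Rps3a1, Fau, Rack1, Rpl22l1 and Rpl7l1, all had a myogenic promoter peak, 2 (Fau and Rpl7l1) an adipogenic and 2 (Rps3a1 and Rack1) an LSD1(OE) one. Of these, Rack1, a scaffold on the small subunit, had a higher density in LSD1(OE) cells, 1.96, than in myogenic medium, 1.55, with intervals that overlapped. Of 78 genes of the mitochondrial ribosome, which have no part in cytosolic translation, 70 (89.7%), 32 (41.0%) and 44 (56.4%) had a promoter peak, with the highest myogenic scores at Mrpl54 (1469) and Mrpl34 (1362). Of 40 translation factor genes, 35 (87.5%), 18 (45.0%) and 21 (52.5%) had one, led by Pabpc1 (1593) and Tpt1 (1496). Of 36 genes of ribosome biogenesis the numbers were 33 (91.7%), 17 (47.2%) and 18 of 36, led by Tsr1 (1262) and Polr1d (833). The intervals of these lists overlapped those of the ribosomal protein genes in every library. Of the genes leading the lists, only Pabpc1 held the TSS nearest to the centre of its strongest myogenic peak. Nearer TSSs were those of Apba3 at Mrpl54, Abhd8 at Mrpl34, Gm4285 at Tpt1, Sgsm2 at Tsr1 and Lnx2 at Polr1d, so these scores may belong to either gene.

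Of 14 genes for regulators of ribosomal protein genes or their messages, 12 (85.7%), 6 (42.9%) and 9 (64.3%) had a promoter peak. The shares of all protein-coding genes were 51.6, 30.0 and 41.2%. These lay below the interval in the myogenic library (60.1 to 96.0%) and inside it in the adipogenic (21.4 to 67.4%) and LSD1(OE) (38.8 to 83.7%) libraries. Myc had a myogenic score of 2655 and an adipogenic score of 968 and no promoter peak in LSD1(OE) cells, where the nearest peak was centred 2577 bp downstream of the TSS. The myogenic and adipogenic peaks of Myc were 5718 and 5583 bp long, with summits 1800 and 1752 bp downstream of the TSS. Whether Lsd1 signal at Myc was lower in LSD1(OE) cells was not tested. Sp1 had scores of 1386, 158 and 359. Myc and Sp1, like Pabpc1 above, lie on chromosome 15, whose part in these scores was not tested. Mycn and Mtor had no promoter peak in any library. Gabpa, Gabpb1, Yy1, Rps6kb1 and Rps6kb2 had one in the myogenic and LSD1(OE) but not the adipogenic library. These are 35.7% of the 14 genes, where 28.0% of ribosomal protein genes and 11.8% of other protein-coding genes had this pattern. Max, Larp1 and Eif4ebp1 had a promoter peak in all 3 libraries, as did Sp1. Tbp, like Myc, had one in the myogenic and adipogenic libraries, and Eif4ebp2 in the myogenic library alone.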

How the data were processed

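Lsd1 ChIP-seq libraries of C2C12 cells in 3 conditions, each with 1 input library, were assigned to groups by the sample labels. Single reads of 50 bp had been aligned to mm10 with Bowtie by the authors, who ran MACS on each ChIP library with the input of that condition. The header of the peak tables gives version 1.4.2 and a p cut-off of 1e-05, the labels give 1.41. How reads that map to several places, such as processed pseudogenes, were counted in peaks is not given in the sources used here.

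The deposited tables hold per peak a count of ChIP tags after duplicate filtering, a score (−log10 of the caller's p-value, times 10), a fold enrichment (ratio over the local background) and an FDR in percent. The authors' fold enrichments and scores depend on library size and were compared within a library only. All deposited peaks had an FDR under 1%.

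Computed here were promoter peaks (centre within 2000 bp of any of 31647 curated RefSeq TSSs), the strongest one per gene by score, tag density, GC and CpG content within 500 bp of the most upstream TSS, and motif matches, with 95% Wilson and exact Poisson intervals. The ribosomal protein genes, the other lists and the motifs were chosen with earlier results of these data known. Named genes were those with the 8 highest and 5 lowest mean densities, those without a peak, the 5 strongest seen in 1 library or in the myogenic and LSD1(OE) libraries only, paralogs, genes of known roles, near-family genes and the 2 strongest of each other list. A few genes that the rule names are not reported here. Other genes named at shared peaks, on chromosome 15, by pattern or in counts were picked after their values were seen. Alternatives were a stricter FDR or score, equal peak numbers, unscaled tags, other windows, positions, TSS sets and assignments, and other gene sets. The steps were tested on simulated peaks. Python 3.11.15, NumPy 2.4.6, pandas 2.3.3, SciPy 1.17.1 and pysam 0.24.0 were used.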

Additional observations from a re-analysis of the deposited data

How the results depend on the processing

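With 1 library per condition, no value has a replicate. Of 146 values under 14 alternatives, 130 kept their direction and stayed within 1.5 times (counts), the margin of the Wilson interval (differences) or the interval of the median (scores), 12 moved further and 4 changed sign. Differences inside that margin still shrank, in LSD1(OE) from 12.5 percentage points to 3.99 at an FDR of at most 0.1%, and in adipogenic cells from 4.19 to 2.43 without scaling of tags and 1.84 without chromosome 15. The myogenic count of the 82 genes ranged from 59 to 73 and moved by over 1.5 times under none. The alternative without chromosome 15 was chosen after seeing the data. An FDR of at most 0.1% left 13 adipogenic and 27 LSD1(OE) genes, 8 in all 3 libraries, median scores of 146 and 211, and an adipogenic difference to other genes of −2.08 percentage points, against 4.19. A score of at least 100 left 16 adipogenic genes and 10 in all 3 libraries, with a median of 142 and a difference of −0.691. Equal peak numbers left 13 genes with myogenic and LSD1(OE) peaks only. Without scaling of tags, that is with each deposited score divided by the scaling factor, the median scores were 144 and 107 in the myogenic and LSD1(OE) libraries. Against other genes with a CpG-rich start only, the differences of all 82 genes were 5.57 in the myogenic, −15.0 in the adipogenic and −12.0 in the LSD1(OE) library, against 35.2, 4.19 and 12.5. Fewer peaks enter the first 3 settings by construction. Dividing the scores by the scaling factor lowers them by construction. The CpG-rich setting changed only the genes compared against, and the cause of the higher shares among those genes was not tested. The weakest listed peaks, of 27 to 35 tags, limit what these libraries can show, and the called length enters the density. No paired analysis was possible because each condition has 1 ChIP library.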
